A study of Homo sapiens with 24 samples.

Results

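The genes described here encode the subunits of the receptors for glutamate and for GABA, the main excitatory and inhibitory transmitters of the brain. The set was chosen with earlier results of these data known. Its members were taken by symbol, as the transcript clusters annotated with 1 subunit symbol. The families were AMPA, kainate, NMDA, delta, metabotropic glutamate, GABA-A (rho subunits included) and GABA-B. This gave 41 genes, 24 for glutamate and 17 for GABA, of 33616 genes with such a cluster; where a gene had several clusters, the one with the highest mean over all arrays stood for it. Further subunit genes of these families were not analysed here. The cells came from R-2A, an established human induced pluripotent stem cell (hiPSC) line labelled HiPS-RIKEN-2A, transduced with lentivirus carrying an shRNA against ROR2, a WNT5A receptor (ROR2 KD), or a control shRNA that targets no mammalian gene (sh-C), and selected with puromycin. Both cell lines were sampled undifferentiated (day 0) and on days 7, 14 and 21 of differentiation toward neural stem/progenitor cells (NS/PCs), with dual SMAD inhibition and a passage every 7 days, and each of the 8 groups had 3 arrays. The study asked how loss of ROR2 changes this differentiation. Each arm is 1 transduced line from 1 hiPSC line, and the sources used here do not say which ROR2 shRNA the array experiment used or whether the lines were cloned.

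AMPA, kainate and NMDA receptors are tetrameric cation channels that glutamate opens, and their subunit makeup sets conductance, calcium entry and kinetics. GABA-A receptors are pentameric chloride channels built mostly from alpha, beta and gamma subunits, whereas GABA-B and metabotropic glutamate receptors signal through G proteins. Neural progenitors already express some of these genes, and the full synaptic sets appear as neurons mature.

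Signals are log2 values of Clariom D arrays, which read the RNA of a whole culture, so that more cells of one type and more RNA per cell cannot be told apart. Array medians lay between 4.26 and 4.51, and arrays of 1 group correlated at 0.963 to 0.987. A background level was set for each array as the 95th percentile of 23 probe sets designed against no transcript (7.30 to 9.97), a severe limit beside the median of these 23 probe sets, 2.87 to 3.44. Of the 41 receptor genes, 14 exceeded it on all 3 arrays of at least 1 group and 26 on no array; a log2 difference between groups under this level is a difference in signal and no estimate of a transcript ratio. ROR2 itself, the knockdown target, averaged 5.29 ± 0.71, 6.67 ± 0.30, 3.98 ± 0.15 and 3.57 ± 0.17 in ROR2 KD cells on days 0, 7, 14 and 21, against 7.81 ± 0.19, 9.29 ± 0.11, 6.55 ± 0.20 and 4.45 ± 0.20 in sh-C cells (SD, n = 3 each). It was lower in ROR2 KD cells on days 0, 7 and 14, and its difference on day 21 did not pass the test (adjusted p = 0.0823). Of these means, only that of sh-C cells on day 7 exceeded the background levels of its arrays (8.42 to 8.63). The limit on reading a transcript ratio therefore holds for ROR2 too. Pluripotency markers matched the label of day 0, with a mean over 5 genes of 16.02 to 16.45 in either line. The mean over 8 neural progenitor genes was 14.4 to 14.6 in ROR2 KD and 13.5 to 13.6 in sh-C arrays on day 21. Of these 8, 1 was called higher in ROR2 KD cells on day 21 (PAX6) and 1 lower (NES), with a median log2 fold change of -0.34, so that the higher mean came from PAX6. It averaged 15.59 ± 0.07 in ROR2 KD cells on day 21, against 5.01 ± 0.29 in sh-C cells (SD), where it was under the background level on all 3 arrays.

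A receptor gene was called when its limma adjusted p was under 0.05 and its fold change above 2. The receptor genes that differed between the lines were few until day 14 and many on day 21, mostly higher in ROR2 KD cells. On day 0 no receptor gene was called by limma (0 of 41, and 0 by a test of each cluster on its own), beside 0.0803% of all genes. At an unadjusted p under 0.05 there were 8 of 41, beside 4046 of all 33616 genes. Day 7 brought 1 higher gene, the metabotropic receptor GRM3, and 1 lower gene, the kainate subunit GRIK5, against 0.113% of all genes higher and 0.164% lower. On day 14, 2 genes were higher (GRIA2, GRM3) and 2 lower (GABRA5, GRIA4), where 0.934% and 0.77% of all genes were called in those directions. On day 21, 11 of 41 were higher, or 26.8%, against 2.16% of all genes; they were GRIA1 to GRIA4, GRIK2, GRIN2B, GRIN3A, GRM5, GABRA3, GABRG3 and GABBR2. Only GRIK3 was called lower, 2.44% of the receptor genes against 2.51% of all genes. The median over the 41 genes was a log2 fold change of 0.26 on day 21, beside -0.02 over all genes, so that the calls came from a minority of the subunits with large differences. By family, 8 of 24 glutamate and 3 of 17 GABA receptor genes were higher on day 21. Of those 12 called genes, 6 exceeded the background level on all 6 arrays and 3 (GRIN3A, GRM5 and GABRG3) on none.

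**Figure D1:**
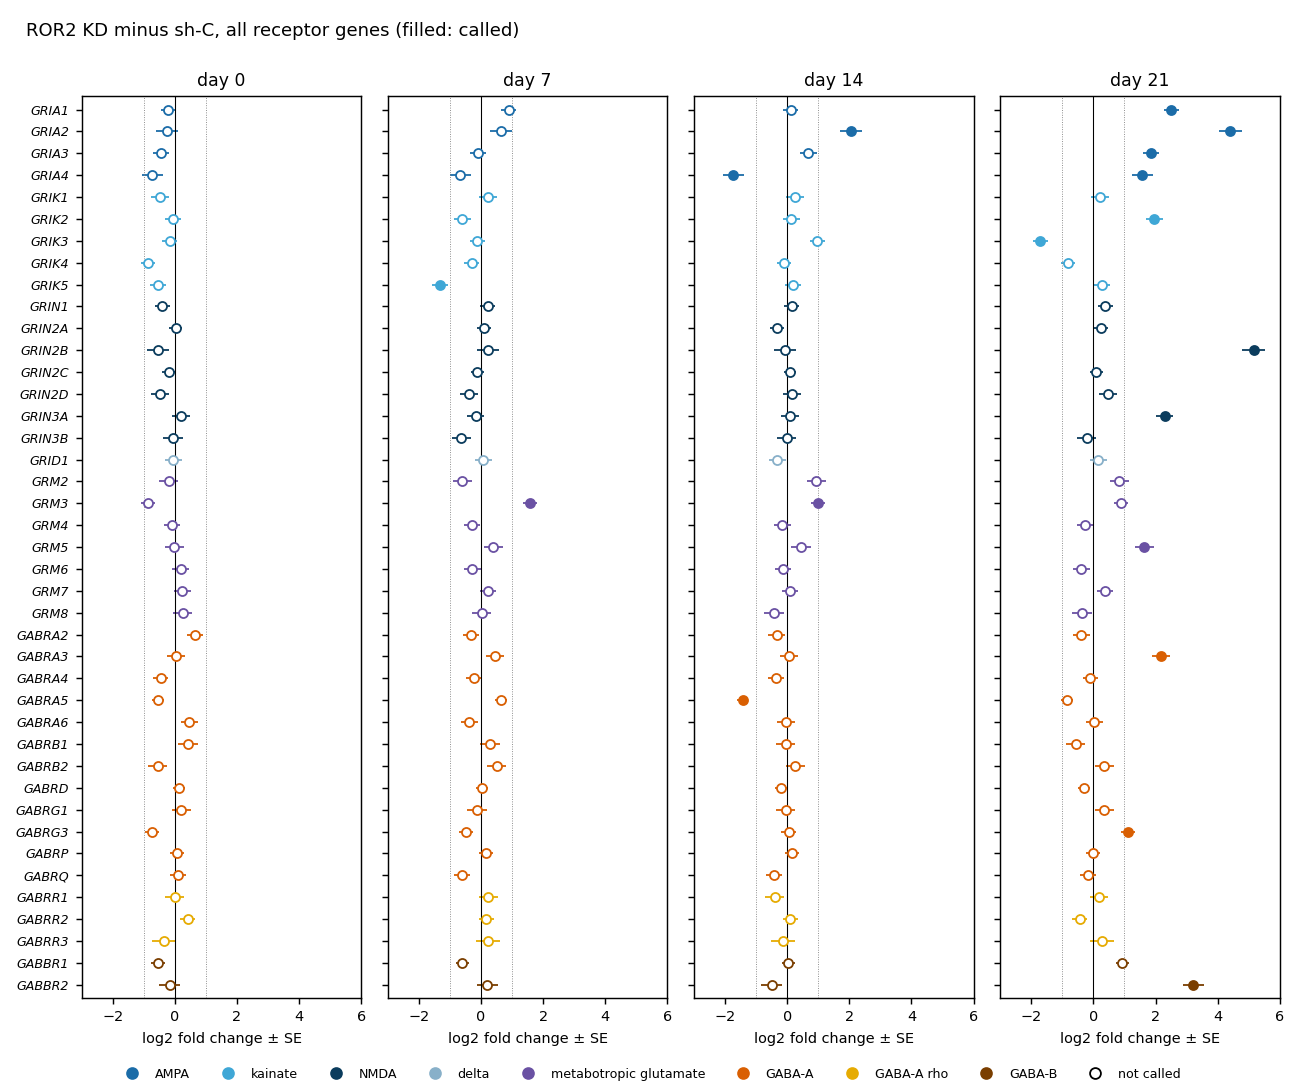
Log2 fold change of ROR2 KD over sh-C cells with limma's standard error for all 41 receptor genes (rows, coloured by family) on days 0, 7, 14 and 21; filled points were called, and dotted lines mark a fold change of 2. On day 0 no point is filled and all lie between the dotted lines, the lowest at -0.87 (GRIK4). On day 21, 11 filled points lie to the right and 1, GRIK3, to the left.

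**Figure D2:**
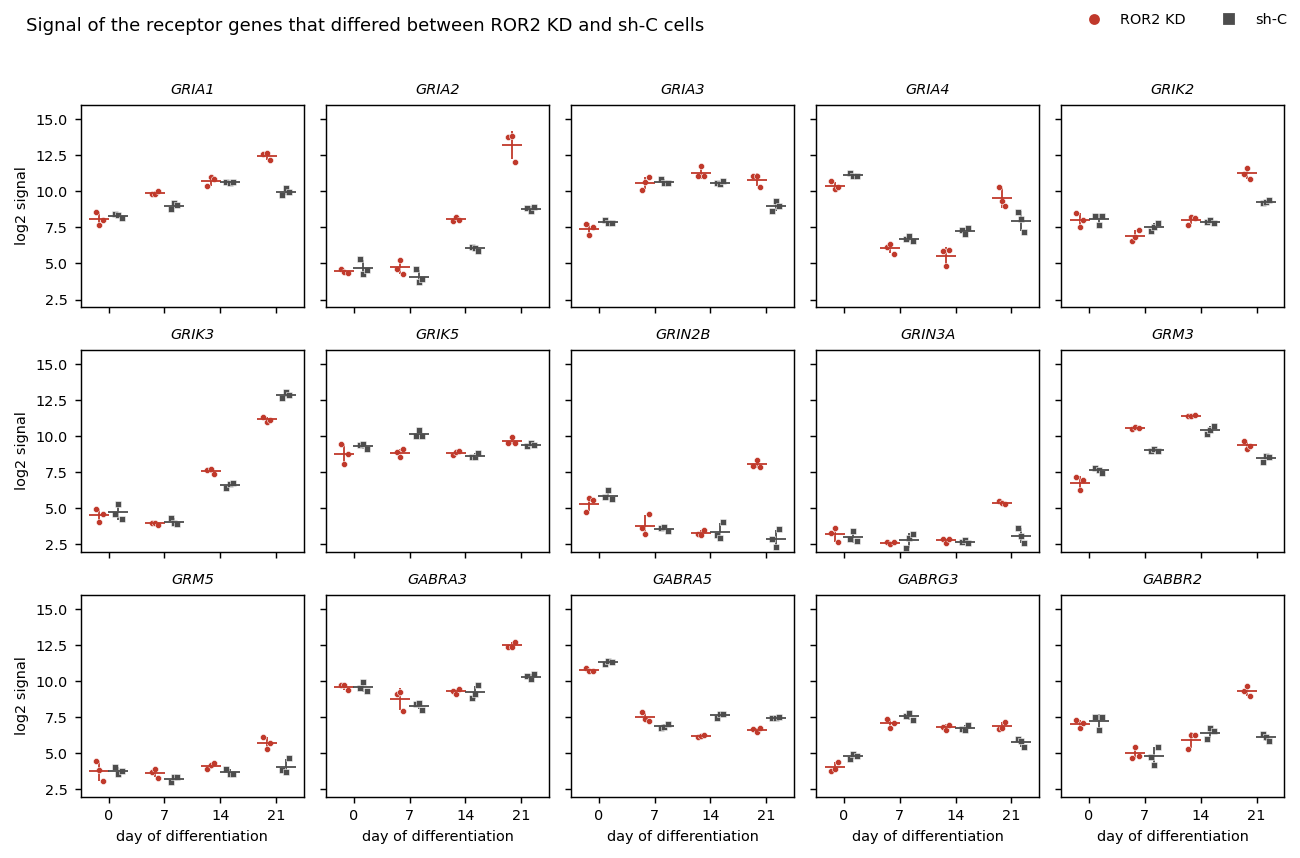
Log2 signal (y axis) of the 15 receptor genes called on at least 1 day, by day of differentiation (x axis); points are single arrays of ROR2 KD (circles, left of each day) and sh-C cells (squares, right), with the mean as a horizontal line and the SD as a vertical one. GRIN2B and GRIN3A separate on day 21 alone. GRM3 lies lower in ROR2 KD cells on day 0 and higher from day 7, and GRIA2 separates from day 14.

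The AMPA family, which carries most fast excitatory transmission, was the one family called higher as a whole on day 21 (4 of 4 genes, median log2 fold change 2.18). GRIA2, whose edited subunit makes AMPA channels nearly impermeable to calcium, read 13.76, 13.81 and 12.07 in ROR2 KD cells on day 21, against 8.87, 8.62 and 8.91 in sh-C cells. The groups were far apart although the third ROR2 KD array was lower than the other two, a 21.3-fold difference (adjusted p = 1.52e-08). Its second transcript cluster, dimmer throughout, read 8.04, 7.84 and 6.58 in ROR2 KD cells, against 4.31, 4.29 and 4.19 in sh-C cells, with the same array lowest (log2 difference 3.22, SE 0.34, adjusted p = 1.44e-06). On day 14 GRIA2 read 7.98, 8.25 and 8.05 in ROR2 KD cells, against 6.18, 6.08 and 5.88 in sh-C cells. These groups did not overlap either (log2 difference 2.05, SE 0.36, adjusted p = 0.00272), and the sh-C arrays were all under the background level.

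The promoter of GRIA2 is shown because it holds the binding sequence of REST, the repressor that keeps many neuronal genes silent in other cells, and because GRIA2 was the receptor gene above background with the largest difference. RefSeq windows of 300 bases, from 250 before to 50 after a start site (build GRCh38.p14), were matched by symbol for 33 of the 41 genes, as 50 windows in all. Capitals mark the match to the REST site, searched on both strands as TTCAGCACCNNGGACAG in GRIA2 and as its first part alone, TTCAGCACC, in GRM2.
GRIA2, chr4:157220369-157220668, plus strand: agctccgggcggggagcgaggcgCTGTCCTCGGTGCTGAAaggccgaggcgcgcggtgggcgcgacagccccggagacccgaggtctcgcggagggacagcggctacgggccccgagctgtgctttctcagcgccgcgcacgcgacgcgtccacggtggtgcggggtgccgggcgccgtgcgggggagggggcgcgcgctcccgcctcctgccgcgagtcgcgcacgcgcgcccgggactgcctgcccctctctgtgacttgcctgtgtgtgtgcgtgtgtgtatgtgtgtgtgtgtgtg
GRM2, chr3:51706818-51707117, plus strand: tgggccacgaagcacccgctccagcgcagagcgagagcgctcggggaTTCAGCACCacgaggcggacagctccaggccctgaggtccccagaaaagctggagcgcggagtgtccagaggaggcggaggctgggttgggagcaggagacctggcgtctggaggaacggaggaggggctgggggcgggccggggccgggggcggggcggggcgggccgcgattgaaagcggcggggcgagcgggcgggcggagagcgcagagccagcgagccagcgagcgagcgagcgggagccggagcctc
In the GRIA2 window the match lay on the opposite strand, at bases 24 to 40. The full sequence occurred in 5 of 35116 windows of all genes (0.0142%) and, among receptor genes, in GRIA2 alone; the first part occurred in 132 windows (0.376%), and among receptor genes in GRIA2 and GRM2. Such matches describe letters in these windows and show no binding. REST signal fell in both lines late in the series. From day 0 to day 21 it averaged 13.12, 13.01, 12.32 and 11.12 in ROR2 KD cells, against 13.01, 12.95, 12.37 and 11.34 in sh-C cells. The step of day 21 over day 14 was -1.20 in ROR2 KD cells (SE 0.22, adjusted p = 0.000751) and -1.03 in sh-C cells (SE 0.22, adjusted p = 0.0042), and the lines differed by -0.22 on day 21 (SE 0.22, adjusted p = 0.822). The homeodomain core TAATTA was found in 1 receptor gene window, of GABRR3, and in 4.84% of all windows.

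GRIA1, the AMPA subunit that traffics with activity, read 12.60, 12.65 and 12.17 in ROR2 KD cells on day 21, against 9.76, 10.21 and 9.93 in sh-C cells. All 3 ROR2 KD arrays lay above all sh-C arrays, a 5.70-fold difference (adjusted p = 1.32e-07), whereas on day 14 the lines overlapped (log2 fold change 0.11, 95% interval -0.37 to 0.58). The second transcript cluster of GRIA1, with a lower mean, did not show this step. From day 14 to day 21 it changed by 0.61 in ROR2 KD cells (limma, SE 0.28, adjusted p = 0.236). In sh-C cells it changed by -0.17 (SE 0.28, adjusted p = 0.84). GRIA3 read 11.06, 11.09 and 10.33 in ROR2 KD cells, against 8.64, 9.30 and 8.97 in sh-C cells on day 21, again without overlap (3.61-fold, adjusted p = 0.000116). GRIA4, known for fast channels in interneurons and early circuits, changed sides. Its log2 difference was -0.72 on day 0 (95% interval -1.43 to -0.02), with all arrays above background. On day 7 the difference was -0.67 (-1.37 to 0.03), and neither was called. On day 14 GRIA4 read 5.84, 4.83 and 5.94 in ROR2 KD cells, against 7.29, 7.08 and 7.46 in sh-C cells, all under the background level (log2 difference -1.74, SE 0.34, adjusted p = 0.00924). On day 21 it read 10.27, 9.35 and 8.97 in ROR2 KD cells, against 8.59, 8.06 and 7.21 in sh-C cells (log2 difference 1.58, SE 0.34, adjusted p = 0.00874). Neither group pair overlapped, yet on day 21 the lowest ROR2 KD array was close to the highest sh-C array. The call on day 14 was lost without the third sh-C array (adjusted p = 0.065) or the second ROR2 KD array (adjusted p = 0.124). That on day 21 was lost without the third sh-C array (adjusted p = 0.0847) or the first ROR2 KD array (adjusted p = 0.0811).

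Among the 7 NMDA receptor genes, 2 were called higher on day 21 and none lower. GRIN2B, the glutamate-binding subunit that predominates in fetal forebrain, read 7.95, 8.34 and 7.87 in ROR2 KD cells, against 2.85, 2.31 and 3.54 in sh-C cells. The groups lay far apart in signal (log2 difference 5.16, SE 0.36, adjusted p = 1.18e-09). Only 2 ROR2 KD arrays exceeded the strict background level and no sh-C array did, so no fold is given. Before day 21 GRIN2B was low in both lines, at 3.25, 3.18 and 3.52 in ROR2 KD cells and 3.15, 2.91 and 4.07 in sh-C cells on day 14. GRIN3A, a glycine-binding subunit that lowers calcium entry in young neurons, read 5.48, 5.39 and 5.30 in ROR2 KD cells on day 21, against 3.63, 3.08 and 2.59 in sh-C cells. The groups were well apart, though both under the background level (log2 difference 2.29, SE 0.28, adjusted p = 1.07e-05). GRIN1, the glycine-binding subunit that every NMDA receptor needs, stayed between 3.72 and 5.10 on all 24 arrays, under the background level. Its difference on day 21 was 0.38 (95% interval -0.12 to 0.88). GRIN2A, the subunit that gains ground in the mature brain, differed by 0.24 on day 21 (95% interval -0.22 to 0.69).

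Kainate receptors modulate release and excitability, and their genes moved in different directions. GRIK2, which encodes a main pore-forming subunit, read 11.21, 11.65 and 10.87 in ROR2 KD cells on day 21, against 9.20, 9.26 and 9.38 in sh-C cells. The groups did not overlap (3.90-fold, adjusted p = 5.04e-05), and both were above background. GRIK3, the subunit with low glutamate sensitivity, read 11.38, 10.98 and 11.17 in ROR2 KD cells on day 21, against 12.69, 13.06 and 12.90 in sh-C cells. It was the one receptor gene called lower that day (log2 fold change -1.71, SE 0.25, adjusted p = 0.000102). On day 14 its order was the other way round, at 7.67, 7.72 and 7.42 in ROR2 KD cells and 6.44, 6.71 and 6.76 in sh-C cells, but that difference did not pass the test (log2 difference 0.96, SE 0.25, adjusted p = 0.0855). GRIK5, a high-affinity auxiliary subunit that needs another kainate subunit to form a channel, read 8.92, 8.53 and 9.12 in ROR2 KD cells on day 7, against 10.0004, 10.44 and 10.06 in sh-C cells. Every ROR2 KD array was lower (log2 fold change -1.31, SE 0.26, adjusted p = 0.0282). The call was lost without any of the 3 sh-C arrays or the second ROR2 KD array (adjusted p = 0.0853 to 0.236). By day 14 the lines overlapped (0.20, 95% interval -0.34 to 0.73). GRIK4, the other high-affinity subunit, differed by -0.82 on day 21 (SE 0.23, adjusted p = 0.0729).

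Of the 7 metabotropic glutamate receptor genes, GRM3 and GRM5 differed. GRM3, a receptor coupled to Gi that is found on glia as well as neurons, read 7.19, 6.26 and 6.94 in ROR2 KD cells on day 0, against 7.82, 7.69 and 7.46 in sh-C cells. The ROR2 KD arrays were lower there, with every array under the background level. That difference was not called (log2 difference -0.86, 95% interval -1.32 to -0.40). On day 7 GRM3 read 10.54, 10.64 and 10.60 in ROR2 KD cells, against 8.95, 9.12 and 8.99 in sh-C cells. The gap was wide beside the spread of either group (2.98-fold, adjusted p = 0.00171). The call did not hold without the 4 arrays of the series with the highest medians, where the log2 fold change was 1.52. These 4 arrays included all but the first ROR2 KD array of that day, so that 1 array stood for ROR2 KD cells and its spread was borrowed from the remaining groups. On day 14 GRM3 read 11.43, 11.44 and 11.46 in ROR2 KD cells, against 10.14, 10.46 and 10.73 in sh-C cells. This log2 fold change of 1.003 was just past the limit of the call (adjusted p = 0.0291), and without any 1 of 5 of the 6 arrays (the third sh-C array apart) it was lost, with adjusted p = 0.0996 to 0.242. On day 21 it read 9.64, 9.15 and 9.31 in ROR2 KD cells, against 8.24, 8.65 and 8.58 in sh-C cells, without overlap but under a fold change of 2 (log2 fold change 0.88, SE 0.22, adjusted p = 0.0322). GRM5, a receptor coupled to Gq that works beside NMDA receptors, read 6.13, 5.28 and 5.73 in ROR2 KD cells on day 21, against 3.83, 3.70 and 4.71 in sh-C cells. The ROR2 KD arrays were higher throughout, with every array under the background level (log2 difference 1.64, SE 0.31, adjusted p = 0.00241). GRM2, of the same Gi-coupled group as GRM3, differed by 0.93 on day 14 (95% interval 0.29 to 1.57) and 0.83 on day 21 (0.19 to 1.47), and neither passed the limma test (adjusted p = 0.358 for the earlier day and 0.237 for the later one).

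Of the 12 GABA-A receptor genes other than rho, 2 were higher on day 21, and 1 was lower on day 14. GABRA3, an alpha subunit prominent before birth, read 12.41, 12.40 and 12.72 in ROR2 KD cells on day 21, against 10.35, 10.14 and 10.48 in sh-C cells. All arrays were above background and the groups far apart (4.55-fold, adjusted p = 3.53e-05), whereas on day 14 the difference was 0.07 (95% interval -0.53 to 0.67). GABRA5, the alpha subunit of many receptors outside synapses, was the one GABA receptor gene called lower on any day. Its difference changed sign over the earlier days, without a call. It was -0.55 on day 0 (95% interval -0.93 to -0.17), with all arrays above background, and 0.64 on day 7 (0.26 to 1.02), with all arrays under it. On day 14 GABRA5 read 6.13, 6.22 and 6.27 in ROR2 KD cells, against 7.45, 7.73 and 7.74 in sh-C cells. The separation was clear although both groups were under the background level (log2 difference -1.43, SE 0.18, adjusted p = 6.04e-05). It remained on day 21 at 6.67, 6.47 and 6.76 in ROR2 KD cells and 7.44, 7.46 and 7.55 in sh-C cells, but under a fold change of 2 (log2 difference -0.85, SE 0.18, adjusted p = 0.00927). GABRG3, a gamma subunit, read 6.65, 6.75 and 7.19 in ROR2 KD cells on day 21, against 6.02, 5.83 and 5.42 in sh-C cells. The arrays did not overlap (log2 difference 1.11, SE 0.23, adjusted p = 0.00721). Its call did not hold without the third sh-C array (0.94, adjusted p = 0.0632), the third ROR2 KD array (0.95, adjusted p = 0.0484) or the 4 arrays with the highest medians (0.78, adjusted p = 0.174). GABRB2, a beta subunit above background in both lines on day 21, read 9.75, 9.48 and 10.35 in ROR2 KD cells and 9.40, 9.76 and 9.36 in sh-C cells, which overlapped (log2 fold change 0.35, 95% interval -0.27 to 0.98). The 3 rho genes, best known from the retina, differed between the lines by -0.44 to 0.41 over the 4 days and were not called.

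Receptors of the GABA-B type need both of their subunits, GABBR1, which binds GABA, and GABBR2, which takes the pair to the surface and couples to the G protein. GABBR2 read 9.31, 9.69 and 8.95 in ROR2 KD cells on day 21, against 6.31, 6.15 and 5.84 in sh-C cells. The ROR2 KD arrays were all above background and the sh-C arrays all under it (log2 difference 3.22, SE 0.34, adjusted p = 1.04e-06), which makes ROR2 KD cells at least 1.98-fold higher when sh-C arrays are set at their background level. On day 14 the order was the reverse and not called, with a difference of -0.49 (95% interval -1.19 to 0.20). GABBR1 exceeded the background level on all 24 arrays. On day 21 it read 13.54, 13.38 and 13.35 in ROR2 KD cells, against 12.44, 12.70 and 12.33 in sh-C cells, which passed the adjusted test but not the fold limit (log2 fold change 0.94, SE 0.21, adjusted p = 0.0151).

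Receptor genes also changed between sampling days within each line. From day 0 to day 7 losses outnumbered gains. In ROR2 KD cells 6 receptor genes were higher and 15 lower on day 7 than on day 0 (14.6% and 36.6%, against 10.9% and 14.8% of all genes), and in sh-C cells 5 were higher and 14 lower (12.2% and 34.1%, against 10.2% and 17.4%). The same 5 genes rose in both lines, GRIA3, GRM2, GRM3, GABRG3 and GABBR1, and GRIA1 was called in ROR2 KD cells only, where the difference between the lines in this step was not called. GABBR1 rose by 2.98 in ROR2 KD cells and 3.04 in sh-C cells, and GRIA3 by 3.17 in ROR2 KD and 2.82 in sh-C cells (log2). Undifferentiated hiPSCs had signal of GABRQ, the theta subunit of GABA-A receptors, at 10.57, 10.31 and 10.23 in ROR2 KD cells and 10.25, 10.12 and 10.48 in sh-C cells, above background on all 6 arrays. By day 7 it had fallen by 4.57 in ROR2 KD cells and 3.86 in sh-C cells. GRIA4 fell by 4.37 in ROR2 KD and 4.42 in sh-C cells, and GABRA5 by 3.26 in ROR2 KD and 4.45 in sh-C cells. In all, 12 receptor genes fell in both lines over this step, GRM4, GABRP, GRIN2D, GABRR1, GABBR2, GRIN2A, GRIN2B, GRIK4 and GABRG1 among them. Each gene named in this list was under the background level on every array of both days, as were GRM2 and GABRG3 among those that rose. The background level itself was 8.96 to 9.97 on day 0 and 8.11 to 8.63 on day 7. Changes under it are changes in signal only.

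Later steps brought gains. From day 7 to day 14, 5 receptor genes rose and 1 fell in ROR2 KD cells (12.2% and 2.44%, against 5.16% and 3.73% of all genes), while 7 rose and 2 fell in sh-C cells (17.1% and 4.88%, against 3.97% and 3.1%). GRIA2, GRIK3, GRM8 and GABRB2 rose in both lines. GRIK3 gained 3.64 in ROR2 KD cells and 2.56 in sh-C cells, and GRM8, a presynaptic receptor coupled to Gi, 1.65 in ROR2 KD and 2.09 in sh-C cells. Both genes were under the background level on every array of these days. GRIK2 rose in ROR2 KD cells and GRIA1, GRM3 and GABBR2 in sh-C cells. GABRA5 fell in ROR2 KD cells, and GRIK5 and GRM2 in sh-C cells. From day 14 to day 21, 11 rose and 1 fell in ROR2 KD cells (26.8% and 2.44%, against 3.21% and 5.75% of all genes), and 5 rose and 2 fell in sh-C cells (12.2% and 4.88%, against 2.64% and 4.69%). All 5 that rose in sh-C cells, GRIA2, GRIK2, GRIK3, GABRA3 and GABRB2, rose in ROR2 KD cells too. The signal of GRIK3 rose by 3.58 in ROR2 KD cells and 6.24 in sh-C cells, above background on day 21 and under it on day 14. GRIA2 rose by 5.12 in ROR2 KD cells and 2.75 in sh-C cells. GRIN2B rose by 4.74 in ROR2 KD cells, while sh-C cells changed by -0.48 (adjusted p = 0.56). GRM3 fell in both lines, by 2.08 in ROR2 KD and 1.95 in sh-C cells, and GRIA3 fell by 1.64 in sh-C cells.

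**Figure D3:**
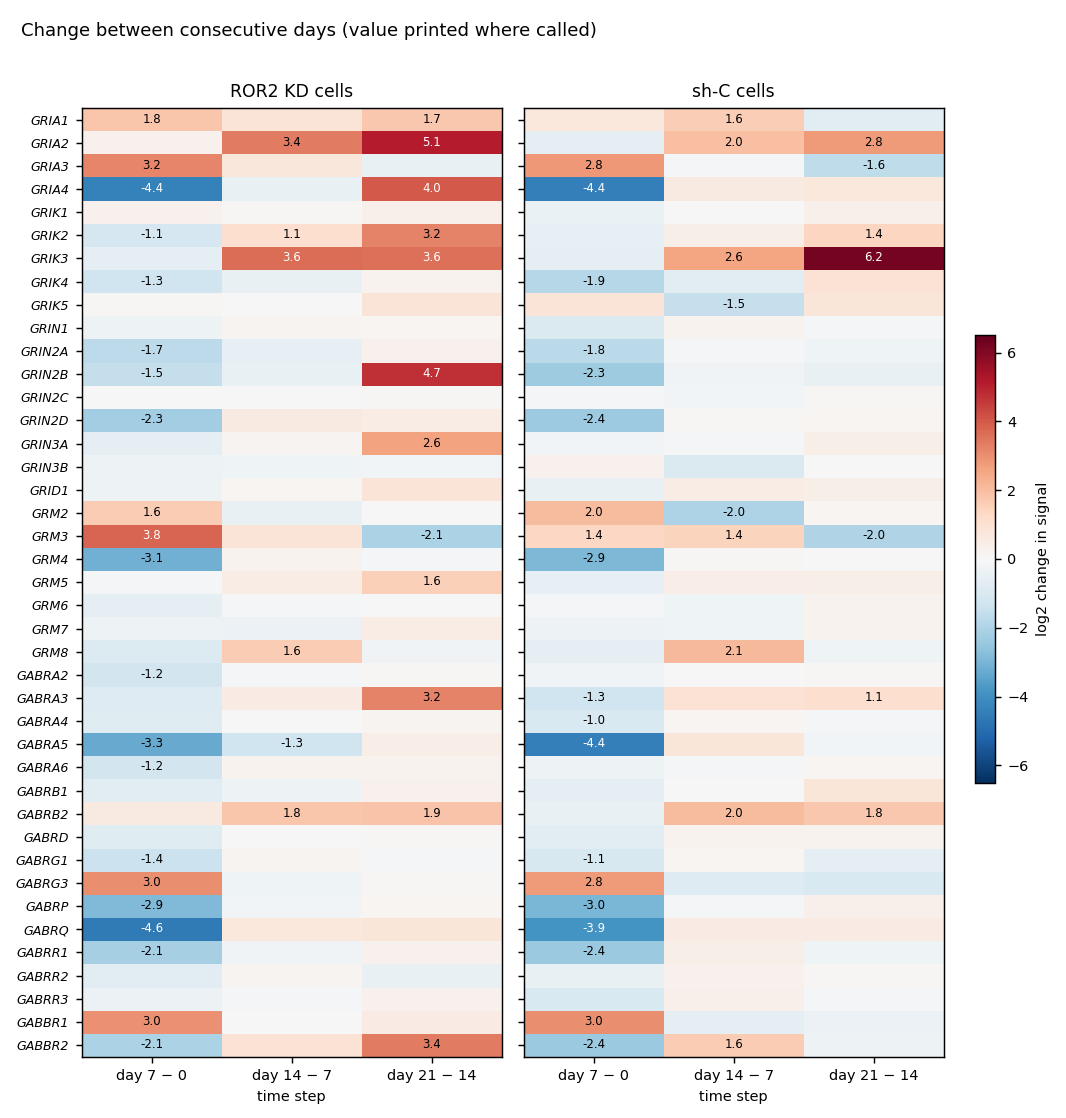
Log2 change in signal between consecutive sampling days (columns) for the 41 receptor genes (rows), in ROR2 KD cells (left) and sh-C cells (right); red is higher on the later day, blue is lower, and a value is printed where the change was called. The first column is mostly blue in both lines, and the last column holds 12 printed values in ROR2 KD cells and 7 in sh-C cells.

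Whether the knockdown difference itself changed between consecutive days was tested as an interaction. It changed for 1 receptor gene between days 0 and 7 and 1 between days 7 and 14, beside 0.0744% and 0.875% of all genes. The former was GRM3 (+2.44, from a difference of -0.86 to 1.57) and the latter GABRA5 (-2.07, from 0.64 to -1.43). Between days 14 and 21 the knockdown difference changed for 9 of 41 (GRIA1, GRIA2, GRIA4, GRIK2, GRIK3, GRIN2B, GRIN3A, GABRA3 and GABBR2), beside 1.38% of all genes. The change was upward for 8 of these. For GRIK3 it was -2.67 (SE 0.35, adjusted p = 0.000102), since its difference was -1.71 on day 21 and 0.96 on day 14. For GRIA3, GRM5 and GABRG3, called on day 21 and not on day 14, the change between those days did not pass this test.

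Several GABA-A receptor genes are neighbours in the human genome (RefSeq, within 1 Mb). GABRA3 and GABRQ lie together on chromosome X; on day 21 the log2 difference was 2.19 for GABRA3 and -0.17 for GABRQ (95% interval -0.70 to 0.36). GABRA5 and GABRG3 lie together on chromosome 15, and on day 21 the log2 difference was -0.85 for GABRA5, under the fold limit, and 1.11 for GABRG3, both under the background level. No gene was called between the lines in the pair GABRB2 and GABRA6 on chromosome 5 or the rho pair GABRR1 and GABRR2 on chromosome 6. In the group of GABRG1, GABRA2, GABRA4 and GABRB1 on chromosome 4, no gene was called between the lines on any day, and none of the 4 exceeded the background level on any array.

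Genes that assemble, anchor or supply these receptors were taken as 6 lists. Beside their counts, 0.934% of all genes were called higher and 0.77% lower on day 14. On day 21 these shares were 2.16% and 2.51%. Of 12 auxiliary subunit genes of AMPA and kainate receptors, 1 was higher on day 14, and 2 were higher and 1 lower on day 21. The AMPA auxiliary gene CACNG3 was higher in ROR2 KD cells on day 14 alone, at 7.72, 6.48 and 7.80, against 4.07, 4.997 and 4.12 in sh-C cells (log2 difference 2.93, SE 0.33, adjusted p = 7.89e-06). CACNG2, which encodes stargazin, was higher on day 21, at 6.76, 7.24 and 6.73 in ROR2 KD cells, against 4.91, 5.12 and 4.87 in sh-C cells (1.95, SE 0.26, adjusted p = 3.36e-05). Both stayed under the background level. The kainate auxiliary genes parted, with NETO2 higher on day 21 (14.58 ± 0.24 in ROR2 KD and 13.19 ± 0.06 in sh-C cells, SD, adjusted p = 0.000549) and NETO1 lower (4.301 ± 0.42 in ROR2 KD and 5.55 ± 0.45 in sh-C cells, adjusted p = 0.0444). NETO1 was under the background level in both lines. Of 15 postsynaptic scaffold genes, SHANK2 alone was called, on day 21 (1.13, SE 0.25, adjusted p = 0.0113).

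Among 11 partners of GABA receptors, KCTD16 and KCTD12, auxiliary subunits of GABA-B receptors, were higher on day 21 and no other was called. KCTD16 read 8.202, 7.24 and 7.34 in ROR2 KD cells and 5.62, 5.26 and 5.50 in sh-C cells (log2 difference 2.14, SE 0.29, adjusted p = 3.76e-05). Every one of these KCTD16 values was under the background level of its array. Of 14 genes of transmitter synthesis and transport, 3 were higher on day 14, and 3 higher and 1 lower on day 21. GAD2, which makes GABA, read 13.15, 12.94 and 12.82 in ROR2 KD cells on day 21, against 7.85, 8.74 and 8.29 in sh-C cells (4.68, SE 0.32, adjusted p = 1.05e-09). GAD1, the other GABA synthesis gene of the list, was not called on any day. SLC32A1, the vesicular GABA transporter, and SLC1A3, a glial and progenitor glutamate transporter, were higher by 2.50 and 3.13 that day. SLC17A6, a vesicular glutamate transporter, was higher on day 14 (1.26, SE 0.29, adjusted p = 0.0418) and not called on day 21, and SLC17A8, of the same family, was lower on day 21 (-1.52, SE 0.32, adjusted p = 0.00799). Of 2 chloride transport genes, the exporter SLC12A5, on which the inhibitory action of GABA in mature neurons rests, was higher on day 21 (1.22, SE 0.24, adjusted p = 0.00344). Of 5 glycine receptor genes, GLRA2, the form of the immature brain, was higher on day 21, at 7.63, 7.02 and 7.91 in ROR2 KD cells, against 3.85, 4.31 and 3.46 in sh-C cells (3.65, SE 0.31, adjusted p = 3.17e-08). Of these GLRA2 values, only that of the third ROR2 KD array exceeded the background level.

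**Figure D4:**
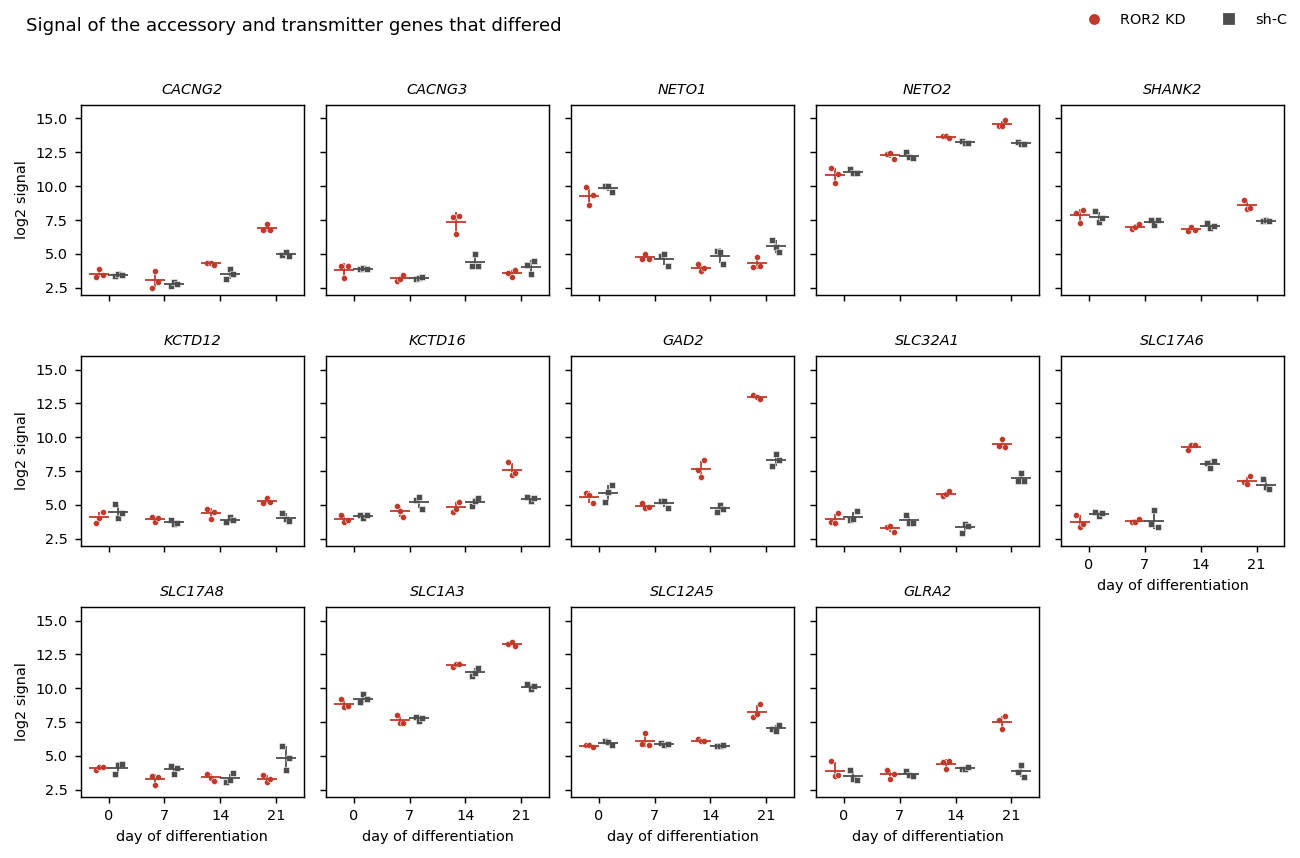
Log2 signal (y axis) by day of differentiation (x axis) of the 14 accessory and transmitter genes called on at least 1 day, with single arrays of ROR2 KD (circles, left of each day) and sh-C cells (squares, right), the mean as a horizontal line and the SD as a vertical one. GAD2 and SLC32A1 separate from day 14 onward, and CACNG3 separates on day 14 alone.

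Cell type markers differed between the lines too. For scale, 0.934% of all genes were called higher on day 14 and 2.16% on day 21, and 2.51% lower on day 21. Of 9 neuron markers, 5 were higher in ROR2 KD cells on day 14 and 2 on day 21 (GAP43 and SNAP25), and their mean signal on day 21 was 14.04 to 14.14 in ROR2 KD and 13.35 to 13.52 in sh-C arrays. Of 7 markers of GABAergic cells, 6 were higher on day 14 and 5 on day 21, with a mean of 12.03 to 12.32 in ROR2 KD and 10.03 to 10.33 in sh-C arrays on day 21. The median log2 fold change was larger on day 14 than on day 21 for the neuron markers (1.22 and 0.69) and the GABAergic markers (2.96 and 1.94). Of 6 markers of glutamatergic cells, SLC17A6 alone was called, on day 14, and their mean on day 21 was 4.36 to 4.66 in ROR2 KD and 4.304 to 4.39 in sh-C arrays. The means over 4 astrocyte markers stayed between 3.73 and 4.89 on all arrays. Of 4 markers of the oligodendrocyte lineage, OLIG1 and OLIG2 were lower on day 21 (-1.54 and -4.09). The part of these shifts in the receptor differences was not tested.

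The 11 receptor genes called in no comparison were GRID1, GRIK1, GRIN1, GRIN3B, GRM6, GRM7, GABRB1, GABRD, GABRR2 and GABRR3, and GRIN2C, the one with the lowest mean level. Their signals lay between 2.26 and 5.56 on all 24 arrays, under the background level.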

How the data were processed

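RNA of 24 cultures (8 groups of 3, called biological replicates by the labels without saying what separated them, so p-values measure the spread between these samples) was read on Clariom D arrays. The authors deposited log2 signals, which per the labels came from RMA in Transcriptome Analysis Console; this corrects background, normalizes between arrays and summarizes each transcript cluster, and can compress low signals. The genome build of the array annotation is not given in the sources used here. From 138745 probe sets, 2995 array controls were left out. A means model over all 24 arrays was fitted to 135750 clusters (limma 3.58.1, R 4.3.3; 16 residual and 6.358 prior degrees of freedom), with Benjamini-Hochberg adjustment over all clusters and two-sided tests. Contrasts were ROR2 KD minus sh-C on each day, later minus earlier consecutive day in each line, and their interaction. Shares of all genes use 1 cluster per gene. The number of arrays limits the precision. Slides and scan batches were not analysed here. The fit was tested on simulated data. The receptor genes and the lists of accessory and marker genes were chosen with earlier results of these data known. Receptor genes called between the lines, and accessory genes called (up to 4 per list and day), are named, as are the others by mean level. The alternatives tried were 1 day alone, a replicate block, median centring, quantile normalization, variance trend, robust moderation, array weights, the methods' t-test, a filter on dim clusters, another cluster per gene, other thresholds and leaving out each array. Leaving out the 4 arrays with the highest medians was added after seeing the data. Same-numbered arrays of the 2 lines deviated from their group means with correlations of -0.02 to 0.22 over 12 pairs, so the numbers were not taken to pair cultures.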

Additional observations from a re-analysis of the deposited data

Results flagged for a closer look

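For 11 receptor genes the difference between ROR2 KD and sh-C cells changed between consecutive days (limma interaction, log2, adjusted over all clusters). GRM3 gained 2.44 on day 7 over day 0 (SE 0.31, adjusted p = 0.0121). GABRA5 moved by -2.07 on day 14 over day 7 (SE 0.26, adjusted p = 0.000124). The other 9 changed on day 21 over day 14. Among them, GRIN2B gained 5.22 (SE 0.50, adjusted p = 1.41e-06), GABBR2 3.71 (SE 0.48, adjusted p = 8.18e-05) and GRIA4 3.31 (SE 0.48, adjusted p = 0.000423). GRIA1 gained 2.40 (adjusted p = 0.000173), GRIA2 2.37 (adjusted p = 0.0266), GRIN3A 2.20 (adjusted p = 0.00524), GABRA3 2.12 (adjusted p = 0.0116) and GRIK2 1.84 (adjusted p = 0.0204). GRIK3 moved the other way, by -2.67 (adjusted p = 0.000102). The groups of 3 arrays are too small for a test of single outlying arrays.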

How the results depend on the processing

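The counts of called receptor genes between the lines were 0, 2, 4 and 12 on days 0, 7, 14 and 21. They were the same numbers with the replicate block (0, 2, 4 and 12), which left the counts of the other comparisons the same too, and with median centring, quantile normalization, variance trend, robust moderation and array weights. After adjustment, the methods' t-test called 0 on days 7, 14 and 21; without adjustment it passed 2, 4 and 12. With only the 6 arrays of that day, 1 was called on day 7, and with an adjusted p under 0.01, 1. The genes lost from the call on the arrays of a single day were GRIK5 on day 7, GRM3 on day 14, and GABRG3, GRIA4 and GRM5 on day 21. Without the 4 arrays with the highest medians 0 were called on day 7, where 1 ROR2 KD array was left and assumed to vary like the other groups, and 11 on day 21. Leaving out each array gave 0 on day 0, 1 to 2 on day 7, 2 to 3 on day 14 (2 without the second ROR2 KD array) and 10 to 13 on day 21. Clusters above background on at least 3 arrays included 14 receptor genes. Tested over these clusters, 9 were called in ROR2 KD cells and 8 in sh-C cells on day 7 against day 0. Between the lines 8 were called on day 21, and 2 and 2 in the interactions of the earlier day pairs. GABBR2 passed this filter only through its 3 ROR2 KD arrays of day 21, so its call there gives no separate support. Fewer genes were tested here, and the cause of the other changes was not tested. Median centring moved all log2 fold changes by -0.12 for the lines on day 7, by 0.15 and -0.15 for the later steps in ROR2 KD cells, by -0.11 for the last step in sh-C cells, and by 0.13 for the interaction of days 14 and 7. Under it the last step in sh-C cells held 4 higher and 3 lower genes, beside 5 and 2. Signal over background is a further limit, since 26 of 41 receptor genes exceeded the strict level on no array.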
